A study of Mus musculus with 3 samples.

Results

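The 39 genes described here are markers of cell division: 16 S-phase genes, whose products copy DNA, and 23 mitotic genes, whose products build the spindle and separate the chromosomes. The list was set by the genes' known functions and not by a threshold on measured values, but with earlier results of these data known. All 39 were found among the 31053 genes of the count matrices. The S-phase members are Mcm2, Mcm3, Mcm4, Mcm5, Mcm6, Mcm7, Cdc6, Cdt1, Gins2, Pcna, Pclaf, Tyms, Rrm1, Rrm2, Uhrf1 and Esco2. The mitotic members are Mki67, Top2a, Cenpa, Cenpe, Cenpf, Bub1, Bub1b, Prc1, Nusap1, Kif11, Kif23, Tpx2, Hmmr, Aurka, Aurkb, Plk1, Ccna2, Ccnb1, Ccnb2, Cdk1, Birc5, Cdc20 and Ube2c. The study profiled single bone marrow cells of mice, taken as endothelial cells and leptin receptor positive (LepR+) stromal cells, the main vascular and perivascular cells of the marrow niche. There were 3 libraries, 1 for each genotype, all from C57Bl/6JCrl mice that had received tamoxifen by gavage. WT was wild type. FLOX was Vegfc flox/flox, with both Vegfc alleles flanked by recombination sites and no Cre named. VC was Cdh5CreERT2;Vegfc flox/flox, in which a tamoxifen-inducible Cre is driven by the Cdh5 promoter, active in endothelial cells. The labels do not state how many mice went into a library or in what proportions the sorted gates were mixed. With 1 library for each genotype no genotype has a replicate, so genotypes were compared by size only, with no test.

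In a dividing cell the MCM complex is loaded onto origins by Cdc6 and Cdt1, and with the GINS complex it becomes the replicative helicase. Pcna is the sliding clamp that holds the polymerases on DNA, and thymidylate synthase (Tyms) and ribonucleotide reductase (Rrm1 and Rrm2) supply its building blocks. Transcription of these genes rises at the entry to S phase when E2F factors are released from the retinoblastoma protein. The mitotic genes follow later and are driven through paired CHR and CCAAT elements. The CHR element is bound by the DREAM complex in resting cells and by MuvB with B-Myb and FoxM1 in dividing cells. Adult marrow endothelium and LepR+ stroma are known to divide rarely, whereas B cell precursors and myeloid progenitors of the same tissue divide often.

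Motifs of these 2 arms of control were searched for in the promoters. The RefSeq promoter table (GRCm38.p6, from 250 bases before to 50 after each start) held 33 of the 39 members, 13 S-phase and 20 mitotic, in 36 windows, and Mcm4, Gins2, Esco2, Tpx2, Aurkb and Ccna2 had no entry. Both strands were searched for the E2F-type motifs TTTCGCGC, TTTGGCGC and TTCCCGCC, of which the first and second can overlap on opposite strands, for the CHR-type motifs TTTGAA and TTCGAA, and for CCAAT. An E2F-type motif was present for 8 of 13 S-phase members (61.5%) and for 1 of 20 mitotic members (5%, Cdk1), against 3.39% of the 27025 genes with a promoter of this length. A CHR-type motif was present for 2 of 13 S-phase members (Mcm2 and Mcm7, 15.4%) and for 16 of 20 mitotic members (80%), against 21.7% of all genes. CCAAT was present for 10 of 13 S-phase members (76.9%) and 18 of 20 mitotic members (90%), against 41.1% of all genes. CHR-type motif and CCAAT occurred together in the promoters of all 16 mitotic members with the former, and of 8.61% of all genes. Cdc6, Mcm2, Pcna, Rrm2 and Tyms held no E2F-type motif in this window, and Birc5, Ccnb1, Cenpe and Nusap1 no CHR-type motif. Among the other genes of these pathways the E2F-type motif was present for 12 of 35 replication genes (34.3%) and 2 of 39 mitosis genes. A CHR-type motif was present for 9 of 35 replication genes and for 27 of 39 mitosis genes (69.2%).

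The stretches below are the 100 bases that end directly before the start, read 5′ to 3′ on the gene's strand, with the motifs of either strand in capitals, so that ATTGG is CCAAT and TTCAAA is TTTGAA on the opposite strand. The first 3 are S-phase members with an E2F-type motif: the helicase subunit gene Mcm6 (chr1:128359706-128359805, minus strand), the gene of the DNA methylation adaptor Uhrf1 (chr17:56303237-56303336, plus strand) and the reductase gene Rrm1 (chr7:102441595-102441694, plus strand). Rrm2 (chr12:24708154-24708253, plus strand) is shown because it had the largest fold change of the S-phase members and held CCAAT alone. The last 4 are mitotic members with CHR-type motif and CCAAT: Cdc20, an activator of the anaphase promoting complex (chr4:118437344-118437443, minus strand), the spindle motor gene Kif11 (chr19:37376282-37376381, plus strand), Ube2c, the ubiquitin-conjugating enzyme of that complex (chr2:164769829-164769928, plus strand), and Prc1, which bundles the midzone of the spindle (chr7:80294376-80294475, plus strand).
Mcm6: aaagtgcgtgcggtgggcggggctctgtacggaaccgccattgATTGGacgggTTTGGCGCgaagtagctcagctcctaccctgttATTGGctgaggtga
Uhrf1: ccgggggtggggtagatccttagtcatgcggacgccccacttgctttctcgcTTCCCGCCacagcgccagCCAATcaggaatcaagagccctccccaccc
Rrm1: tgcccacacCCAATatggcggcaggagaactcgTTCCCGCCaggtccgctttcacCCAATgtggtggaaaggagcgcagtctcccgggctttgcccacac
Rrm2: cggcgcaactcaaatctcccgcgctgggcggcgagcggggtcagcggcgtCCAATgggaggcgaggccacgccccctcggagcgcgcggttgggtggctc
Cdc20: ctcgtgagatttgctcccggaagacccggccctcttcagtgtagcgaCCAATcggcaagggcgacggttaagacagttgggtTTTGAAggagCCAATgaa
Kif11: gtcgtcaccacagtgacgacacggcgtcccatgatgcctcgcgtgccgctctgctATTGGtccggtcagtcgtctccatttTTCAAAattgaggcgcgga
Ube2c: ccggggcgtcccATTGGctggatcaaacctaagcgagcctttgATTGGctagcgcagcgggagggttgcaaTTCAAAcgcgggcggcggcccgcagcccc
Prc1: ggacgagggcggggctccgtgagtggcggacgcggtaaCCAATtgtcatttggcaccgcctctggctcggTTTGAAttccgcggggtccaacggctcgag

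In each of the 4 mitotic stretches a CHR-type motif lies between a CCAAT box and the start. These matches describe the letters only and no binding was measured. In Cdc20 the TTTGAA begins 18 bases before the start with CCAAT at 53 and 8 bases. For Kif11 these distances are 19 bases for the CHR-type motif and 45 for CCAAT.

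The matrices held 15624 barcodes, 5718 in WT, 6529 in FLOX and 3377 in VC, with 56853574, 61758462 and 37361779 unique molecular identifiers (UMIs, each standing for 1 captured RNA molecule). Cells with at least 500 genes and at most 10% mitochondrial UMIs were kept, 12790 in all, at a median of 8702 to 10917 UMIs per library. Between 5 and 10 barcodes were shared by any pair of libraries. Vegfc itself had 66, 27 and 6 UMIs in the endothelial cells of WT, FLOX and VC (1.62, 0.810 and 0.258 CPM, a count scaled by the total UMIs of the class) and 246, 201 and 145 CPM in stromal cells. The labels do not state which part of the transcript the recombination removes, so these 3′ counts are a limited check of the deletion. No member was used to assign cells. Endothelial cells were those with Cdh5, the endothelial cadherin, and under 50 UMIs of the stromal chemokine Cxcl12 (3196, 3581 and 1840 cells in WT, FLOX and VC). Stromal cells had at least 50 UMIs of Cxcl12 and 1 of Lepr or Adipoq (264, 1107 and 466 cells). B lineage cells had at least 2 UMIs of Cd79a and no Cdh5 (339, 373 and 168), and myeloid progenitors at least 5 UMIs of the granule genes Elane, Mpo and Prtn3 and no Cdh5 (90, 168 and 50). These last 2 classes serve here as marrow classes that hold dividing cells. Some cells met 2 gates: 3, 8 and 3 stromal cells were also in the B gate and 1, 7 and 3 in the myeloid gate. The 9 endothelial markers summed to between 6455 and 7482 CPM in endothelial cells and between 31.9 and 86.2 CPM in stromal cells. The 8 LepR stromal markers summed to between 8330 and 11011 CPM in stromal cells, and no marker was at 0 in its own class. Lepr and Adipoq are among those 8 and also set the stromal gate, so part of that sum is fixed by the gate. B cells of FLOX and VC held many plasma cells: 177 of 373 and 66 of 168 had 20 or more UMIs of Jchain, the joining chain of secreted antibody, against 11 of 339 in WT. Throughout, values are given for WT, FLOX and VC in that order, and intervals of CPM and of shares cover counting error only.

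The members were low in the niche cells and high in the myeloid progenitors of all 3 libraries and in the B cells of WT. Summed over the 16 S-phase members the level was 280, 291 and 251 CPM in endothelial cells, 145, 210 and 266 CPM in stromal cells, 2532, 305 and 328 CPM in B cells and 2610, 1976 and 2077 CPM in myeloid progenitors. Summed over the 23 mitotic members it was 301, 317 and 170 CPM in endothelial cells, 100, 169 and 338 CPM in stromal cells, 5794, 677 and 779 CPM in B cells and 4138, 4123 and 3442 CPM in myeloid progenitors. Myeloid progenitors were thus high in all 3 libraries, B cells high in WT and far lower in FLOX and VC, and the 2 niche classes low in all 3. In such sums fewer dividing cells and less RNA in each cannot be told apart. The ratio of mitotic to S-phase UMIs was 1.07, 1.09 and 0.679 in endothelial cells and 0.694, 0.804 and 1.27 in stromal cells, against 2.22 to 2.37 in B cells and 1.59 to 2.09 in myeloid progenitors. VC was thus the lowest library by this ratio in endothelial cells and the highest in stromal cells. By role, the helicase genes summed to 134, 137 and 121 CPM in endothelial cells and 70.5, 101 and 114 CPM in stromal cells, and Mki67 with Top2a to 98.4, 107 and 55.3 CPM and to 25.8, 56.0 and 119 CPM.

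**Figure D1:**
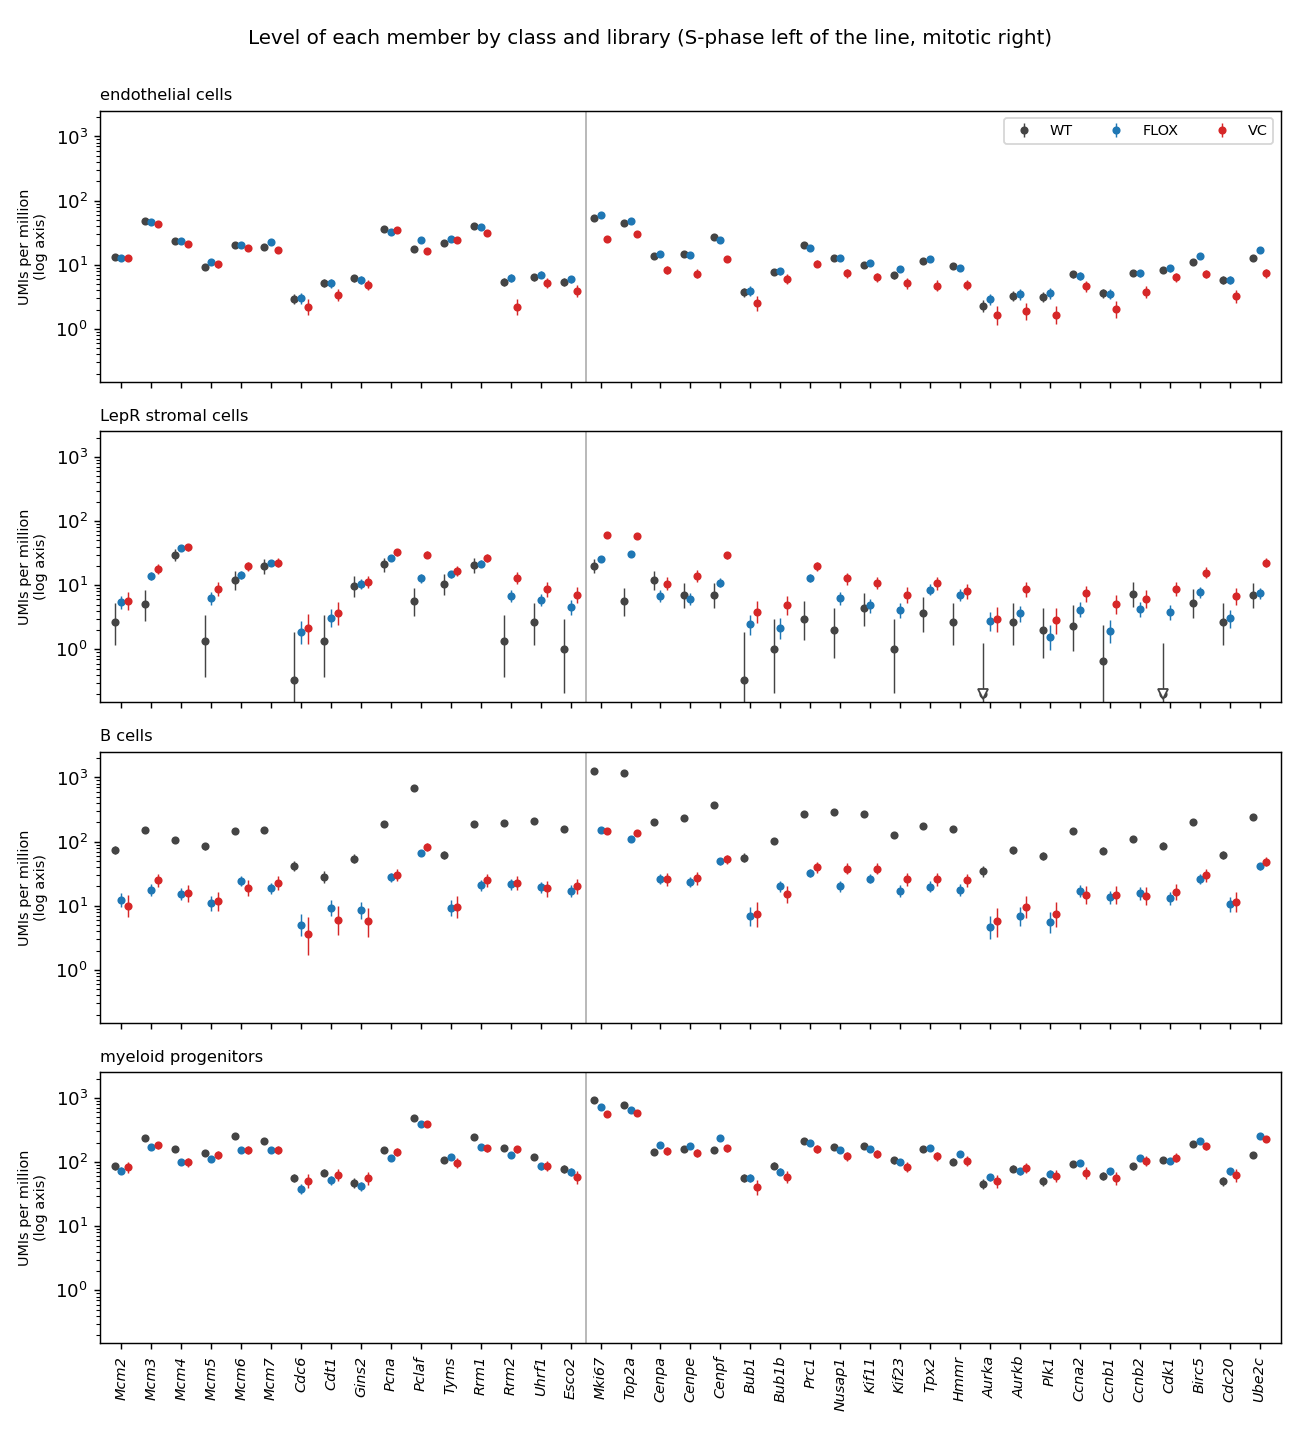
Level of each of the 39 members in 4 classes of cells (panels) and 3 libraries (colours), in CPM on a log axis, with exact 95% Poisson intervals. Myeloid progenitors and the WT B cells sit highest, the B cells of FLOX and VC lie below endothelial cells for some members such as Mcm3 and Tyms, and the open triangles mark Aurka and Cdk1, which had 0 UMIs in WT stromal cells and are drawn at the foot of the axis.

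Of the helicase genes Mcm3 had the most UMIs in endothelial cells, at 48.0, 46.8 and 42.5 CPM. In stromal cells Mcm3 stood at 5.03, 14.2 and 17.8 CPM, below every endothelial library. In B cells it was 154, 17.6 and 24.8 CPM and in myeloid progenitors 235, 174 and 183 CPM. Mcm2 gave the same order at a lower level, with 13.2, 12.5 and 12.7 CPM in endothelial cells and 2.68, 5.44 and 5.74 CPM in stromal cells, while Mcm4 was higher in stromal cells (29.5, 38.4 and 39 CPM) than in endothelial cells (23.9, 23.7 and 20.9 CPM). Mcm6 and Mcm7 lay between 17.0 and 22.4 CPM in the endothelial libraries and between 12.1 and 22.5 CPM in the stromal ones, and Mcm5 between 9.37 and 10.9 CPM and between 1.34 and 8.90 CPM. The subunits of the same complex were thus not in 1 ratio in the 2 niche classes.

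Gins2, a subunit of the GINS complex, had the most UMIs of the loading and activation genes. It was at 6.18, 5.88 and 4.90 CPM in endothelial cells and 9.73, 10.5 and 11.3 CPM in stromal cells, a difference not called in the class contrast below. The loading factors Cdc6 and Cdt1 were at most 5.16 CPM in the endothelial libraries. In B cells Gins2 was at 54.1, 8.64 and 5.74 CPM and in myeloid progenitors at 47.5, 41.7 and 56.5 CPM. The clamp gene Pcna was at 36.4, 32.9 and 35.4 CPM in endothelial cells and 21.1, 27.0 and 32.4 CPM in stromal cells. It reached 187, 28.0 and 30.2 CPM in B cells and 156, 114 and 143 CPM in myeloid progenitors, so the FLOX and VC B cells were not above the endothelial cells on this scale.

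Rrm1 and Rrm2 encode the large and the small subunit of ribonucleotide reductase, and their levels were far apart. Rrm1 stood at 39.8, 38.5 and 31.6 CPM in endothelial cells and at 20.5, 21.8 and 26.8 CPM in stromal cells. Rrm2 stood at 5.35, 6.27 and 2.19 CPM in endothelial cells and at 1.34, 6.85 and 13.2 CPM in stromal cells. In myeloid progenitors the 2 subunit genes came closer, with Rrm1 at 243, 174 and 164 CPM and Rrm2 at 167, 129 and 158 CPM. Tyms, which makes thymidylate, was at 21.5, 25.4 and 24.4 CPM in endothelial cells, 10.4, 14.8 and 16.7 CPM in stromal cells and 108, 119 and 97.8 CPM in myeloid progenitors. In B cells Tyms was at 62.5 CPM in WT and at 9.20 and 9.69 CPM in FLOX and VC, below the endothelial cells of those libraries. UMIs of 3′ ends count molecules and do not scale with transcript length.

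Uhrf1, which brings the maintenance methyltransferase to copied DNA, was at 6.38, 7.02 and 5.20 CPM in endothelial cells, 2.68, 5.96 and 8.61 CPM in stromal cells and 121, 85.7 and 86.9 CPM in myeloid progenitors. Esco2, the acetyltransferase that locks cohesin on sister chromatids, was at 5.42, 5.91 and 3.87 CPM in endothelial cells, 1.01, 4.55 and 7.03 CPM in stromal cells and 78.1, 70.2 and 57.9 CPM in myeloid progenitors. Both were highest in the WT B cells, Uhrf1 at 209 CPM and Esco2 at 158 CPM, and at most 20.1 CPM in the B cells of FLOX and VC.

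Mki67, the proliferation antigen that coats mitotic chromosomes, had the highest level of the members in endothelial cells of WT and FLOX, with 53.5, 60.2 and 25.3 CPM. In stromal cells Mki67 was at 20.1, 25.6 and 60.4 CPM, highest in VC, in B cells at 1269, 153 and 149 CPM and in myeloid progenitors at 933, 711 and 564 CPM. Top2a, the topoisomerase that untangles sister chromatids, was at 44.9, 47.3 and 30.0 CPM in endothelial cells, 5.70, 30.5 and 58.1 CPM in stromal cells, 1191, 109 and 135 CPM in B cells and 785, 648 and 591 CPM in myeloid progenitors. For both genes VC was lowest of the libraries in endothelial cells and highest in stromal cells.

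Cenpf, of the outer kinetochore, was at 27.3, 23.9 and 12.2 CPM in endothelial cells and 7.05, 11 and 29.3 CPM in stromal cells. Prc1, of the spindle midzone, was at 20.6, 18.0 and 10.4 CPM and at 3.02, 13.1 and 19.8 CPM. Birc5, the survivin subunit of the chromosomal passenger complex, was at 11, 13.8 and 7.17 CPM and at 5.37, 7.75 and 15.8 CPM. Ube2c, which tags mitotic proteins for destruction, was at 12.8, 17.3 and 7.34 CPM and at 7.05, 7.45 and 22.5 CPM. In myeloid progenitors these 4 genes lay between 130 and 259 CPM. The remaining 17 mitotic members lay between 1.63 and 14.9 CPM in the endothelial libraries and at or below 14.1 CPM in the stromal ones. Aurka, a spindle pole kinase, and Cdk1, the mitotic cyclin-dependent kinase, had 0 UMIs in WT stromal cells, where 3 UMIs would be 1.01 CPM.

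To compare classes, the UMIs of the 4 classes were summed in each library and the 12 sums were fitted with edgeR's quasi-likelihood test with the library as a block, over 14947 genes, all 39 members among them. The 3 libraries are the replicates of this comparison and differ in genotype, so the spread includes any difference between genotypes, and the labels do not say how many animals each one pooled. The fit scales sums by TMM factors, which were 0.564 and 0.609 for the B cells of FLOX and VC and between 1.01 and 1.22 for the other 10 sums. Antibody transcripts (immunoglobulin genes and Jchain) made up 51.4% and 48.2% of the UMIs of those 2 sums and 8.38% of the WT B cell sum. With the smaller factors the fold changes of B cells against endothelial cells are larger than the CPM above would give. Those of myeloid progenitors against B cells are smaller.

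Myeloid progenitors exceeded endothelial cells for all 39 members (edgeR quasi-likelihood test with Benjamini-Hochberg adjustment over all genes, threshold 0.05), where 25% of all genes were called higher and 34.8% lower. The median log2 fold change was 3.01 for the S-phase members and 3.79 for the mitotic members, against −0.26 for all genes. The smallest was that of the clamp gene Pcna at 1.82 (SE 0.378, adjusted p = 0.00201) and the largest that of Rrm2 at 4.89 (SE 0.744, adjusted p = 0.000276). Mki67 was higher by 3.83 (SE 0.651, adjusted p = 0.000563) and Top2a by 3.89 (SE 0.814, adjusted p = 0.00209).

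B cells exceeded endothelial cells for 36 members, 13 S-phase and all 23 mitotic, where 25.4% of all genes were called higher and 30.9% lower, and no member was lower. The median log2 fold change was 1.82 for S-phase and 3.07 for mitotic members, against −0.11 for all genes. Rrm2 again had the largest at 4.10 (SE 0.737, adjusted p = 0.000922), with Mki67 at 3.44 (SE 0.651, adjusted p = 0.00127) and Top2a at 3.49 (SE 0.822, adjusted p = 0.00467). The 3 members that did not pass were Tyms at 0.33 (SE 0.408, adjusted p = 0.519), Mcm3 at 0.55 (SE 0.506, adjusted p = 0.376) and Rrm1 at 1.03 (SE 0.418, adjusted p = 0.0576). Without the WT library Tyms was lower in B cells, by −0.56 (adjusted p = 0.0169). With B cells of 20 or more Jchain UMIs left out, an alternative chosen after seeing the data, all 39 members were called higher (Tyms at 0.97, adjusted p = 0.00554).

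Stromal cells differed from endothelial cells for 2 members only, both lower and both of the helicase: Mcm3 at −1.82 (SE 0.516, adjusted p = 0.0154) and Mcm2 at −1.38 (SE 0.428, adjusted p = 0.0238). Of all genes 20% were called higher and 24.5% lower in this comparison, and the count of members lies under that background. No member passed as higher, the largest change being that of Gins2 at 0.88 (SE 0.403, adjusted p = 0.103), and medians were −0.37 for S-phase and −0.31 for mitotic members against −0.11 for all genes. Mki67 at −0.32 (SE 0.615, adjusted p = 0.708) and Top2a at −0.31 (SE 0.76, adjusted p = 0.769) have wide standard errors, and a p that misses the threshold does not show equal levels. Neither helicase call held without FLOX (Mcm3 −1.83, adjusted p = 0.0823; Mcm2 adjusted p = 0.121) or without VC (Mcm3 −2.13, adjusted p = 0.0781; Mcm2 adjusted p = 0.0987), where the checkpoint kinase gene Bub1b alone was called lower (−2.01, adjusted p = 0.0305). Without WT, 6 members were called lower (Mcm2, Mcm3, Mcm5, Tyms, Rrm1 and Bub1b) and 2 higher (Mcm4 and Gins2).

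Myeloid progenitors exceeded B cells for 6 members, all S-phase, where 13.6% of all genes were called higher and 16.1% lower. Over both lists the share of members called higher was close to that background. The 6 members were the licensing factor gene Cdt1 at 1.62 (SE 0.332, adjusted p = 0.00481), Tyms at 1.71 (SE 0.413, adjusted p = 0.0113) and the helicase genes Mcm4, Mcm5, Mcm6 and Mcm7 at 1.17 to 1.57. The smallest change was that of Esco2 at −0.05 (SE 0.544, adjusted p = 0.978), and none of the 23 mitotic members passed. This count rested on the libraries: it was 37 without WT, 1 without FLOX and 0 without VC.

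**Figure D2:**
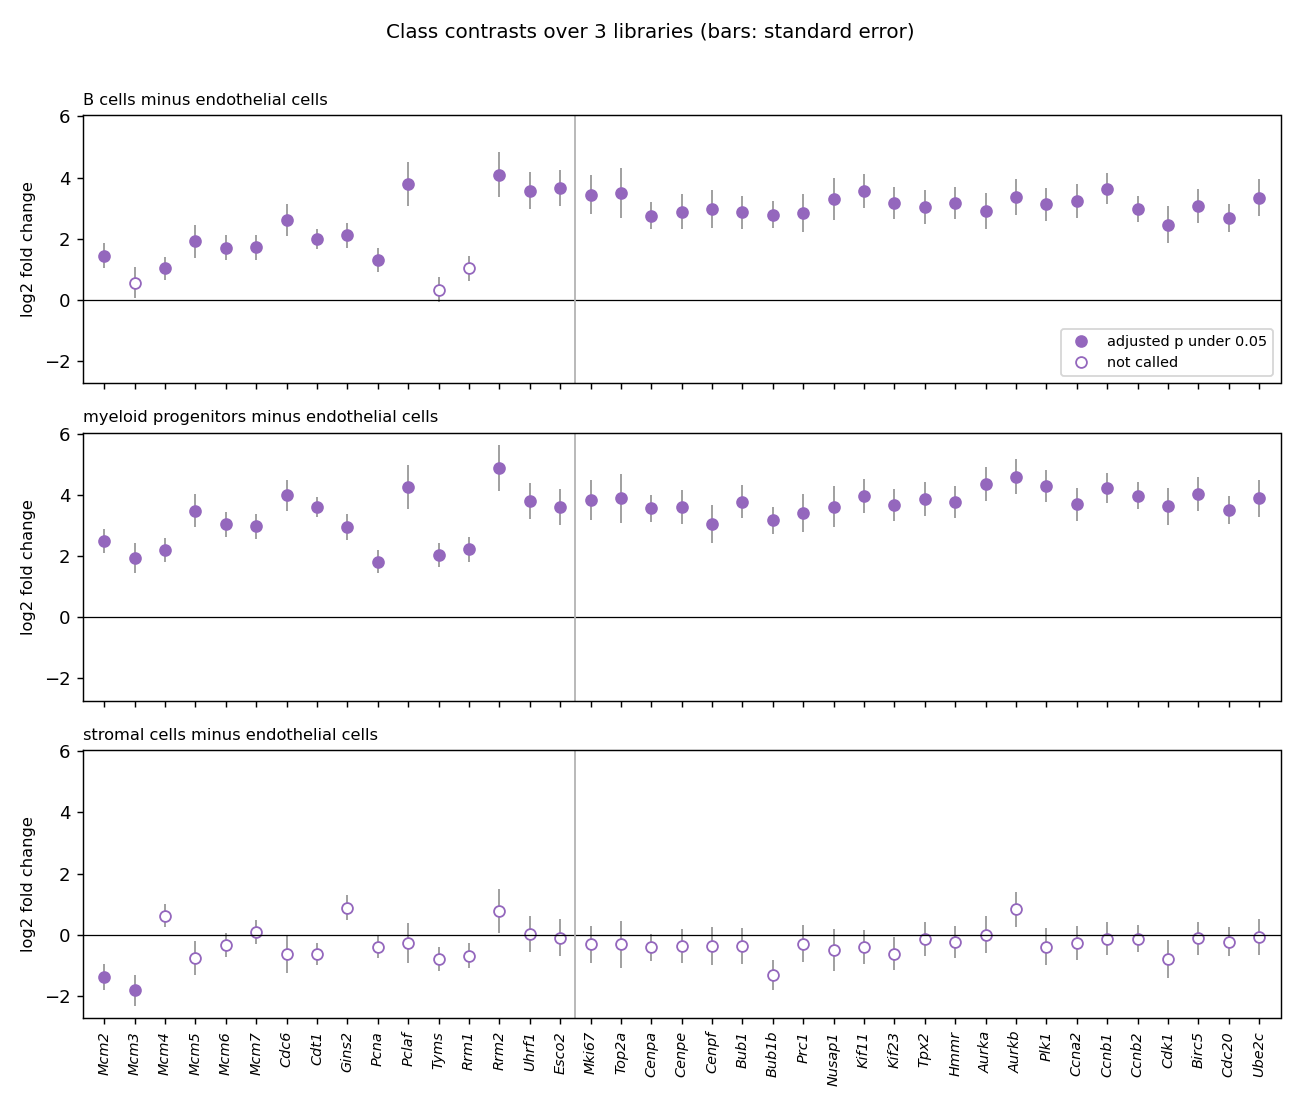
Log2 fold change of each member between classes of cells, from the edgeR fit over 3 libraries, with standard errors as bars. Filled points passed an adjusted p of 0.05: all 39 members in myeloid progenitors, 36 in B cells and 2, Mcm2 and Mcm3, in stromal cells, each against endothelial cells.

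The other genes of the pathways were taken from 3 lists. Of 45 other replication genes 39 were called higher in B cells and 44 in myeloid progenitors than in endothelial cells, and of 49 other mitosis genes 47 and 48, with none lower. Of all genes 25.4% and 25% were called higher. In stromal cells against endothelial cells 1 replication gene was called higher (Rpa3) and 4 lower (Pola2, Fen1, Ung and E2f1), and 1 mitosis gene higher (Cks1b) and 4 lower (Incenp, Kif4, Cdc25b and Ncapd2). These stromal counts lie under the background of 20% of all genes higher and 24.5% lower. Smc4, a condensin subunit, was at 59.8, 64.4 and 47.4 CPM in endothelial cells and at 426, 414 and 374 CPM in myeloid progenitors. Its log2 fold change between them was 2.68 (SE 0.374, adjusted p = 0.000153). Slbp, which binds histone mRNA, had 105, 98.8 and 92.5 CPM in endothelial cells and a change of 0.94 (SE 0.267, adjusted p = 0.0112) in myeloid progenitors. Rfc1, the large subunit of the clamp loader, changed by 1.22 (SE 0.249, adjusted p = 0.00175) and Hjurp, the chaperone of the centromeric histone, by 0.99 (SE 0.312, adjusted p = 0.0189). These 4 genes were chosen as the most abundant of their lists. Each changed less than any of the 23 mitotic members, of which Cenpf changed least at 3.05. Slbp, Rfc1 and Hjurp also changed less than any S-phase member, of which Pcna changed least at 1.82. Smc4 changed more than Pcna and some other S-phase members.

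The third list held 13 regulators of the RB and DREAM pathways. In B cells 2 were higher and none lower, in myeloid progenitors 8 were higher and 2 lower, and in stromal cells 1 was higher and 3 lower than in endothelial cells. Of all genes 25.4% were called higher and 30.9% lower in B cells, 25% and 34.8% in myeloid progenitors and 20% and 24.5% in stromal cells. Only the count higher in myeloid progenitors lay above these shares. Rb1, the retinoblastoma protein gene, was at 107, 86.1 and 79.1 CPM in endothelial cells, 29.2, 24.1 and 26.3 CPM in stromal cells and 60.9, 37.5 and 37.7 CPM in myeloid progenitors. Its log2 fold change was −1.83 (SE 0.173, adjusted p = 1.15e-05) in stromal cells and −1.15 (SE 0.174, adjusted p = 0.000255) in myeloid progenitors against endothelial cells. In stromal cells the related pocket protein gene Rbl2 was higher by 1.08, while E2f4 at −0.48 and Lin54 at −0.71 were lower. Rbbp4, a histone chaperone shared by the complex, did not pass in stromal cells (−0.22, SE 0.215, adjusted p = 0.444) and was higher in myeloid progenitors (0.73, SE 0.217, adjusted p = 0.0143).

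How many cells carried the members was counted after each cell had been thinned to 2000 UMIs, which left out 58, 67 and 39 endothelial cells and 2, 2 and 3 stromal cells with fewer. A cell with at least 3 UMIs of the mitotic members is called here a cell in the dividing range. It is a range and not a cell type: 29, 23 and 4 endothelial cells had exactly 2 such UMIs and 3, 6 and 2 exactly 3. For S-phase UMIs 158, 184 and 71 had exactly 2 and 35, 52 and 16 exactly 3. In endothelial cells 50 of 3138, 67 of 3514 and 24 of 1801 cells were in it, or 1.59% (exact 95% interval 1.18 to 2.1), 1.91% (1.48 to 2.42) and 1.33% (0.856 to 1.98), intervals that overlap. In stromal cells it held 1 of 262, 16 of 1105 and 12 of 463 cells, or 0.382% (0.00966 to 2.11), 1.45% (0.830 to 2.34) and 2.59% (1.35 to 4.48). B cells had 26.5%, 7.10% and 5.99% of cells in the range, and 27.8%, 16.7% and 10.4% without those of 20 or more Jchain UMIs. Myeloid progenitors had 73.0%, 49.1% and 58.3%.

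At least 3 UMIs of the S-phase members were found in 2.77%, 3.41% and 3.05% of endothelial cells, 0.382%, 1.72% and 2.38% of stromal cells, 24.7%, 7.10% and 5.39% of B cells and 74.2%, 52.7% and 58.3% of myeloid progenitors. Of these endothelial cells 62, 81 and 39 had under 3 mitotic UMIs, whereas 25, 39 and 16 had at least 3 of both lists and 25, 28 and 8 were in the dividing range with under 3 S-phase UMIs. A single UMI says less. At least 1 S-phase UMI was found in 31.2%, 32.6% and 30.1% of endothelial cells and 27.9%, 24.0% and 24.4% of stromal cells, against 6.25%, 9.86% and 5.26% of plasma cells, a class known to have mostly left the cell cycle. The median depth before thinning was 10938, 7600 and 10299.5 UMIs in endothelial cells and 13322, 19314.5 and 27512 UMIs in the 16, 216 and 77 plasma cells. Antibody transcripts count toward the thinned UMIs. They made up 51.4% and 48.2% of the UMIs of FLOX and VC B cells, which hold many plasma cells. In endothelial cells they made up 0.174%, 1.18% and 1.12%. Thinned plasma cells can thus keep fewer other UMIs, which lowers their shares. The lower S-phase shares of plasma cells therefore do not show that the niche classes divide more. At least 1 mitotic UMI was found in 9.21%, 8.20% and 5.83% of endothelial cells and 6.49%, 6.79% and 7.13% of stromal cells, while plasma cells had 25.0%, 9.86% and 10.5%, so the niche classes were not above plasma cells by this measure and a single mitotic UMI is not read as division. The mitotic UMIs of plasma cells were mainly of Mki67, with 91, 139 and 43 UMIs against 44, 14 and 1 of Top2a, so they do not keep the members' ratio in dividing cells, and how much free RNA adds to the shares was not tested. At least 3 mitotic UMIs were found in 1 of 16, 0 of 213 and 0 of 76 plasma cells, the exact interval of the counts of 0 reaching 1.72% and 4.74%. Unthinned, 34.1% of WT endothelial cells had a mitotic UMI and 80.3% an S-phase UMI.

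**Figure D3:**
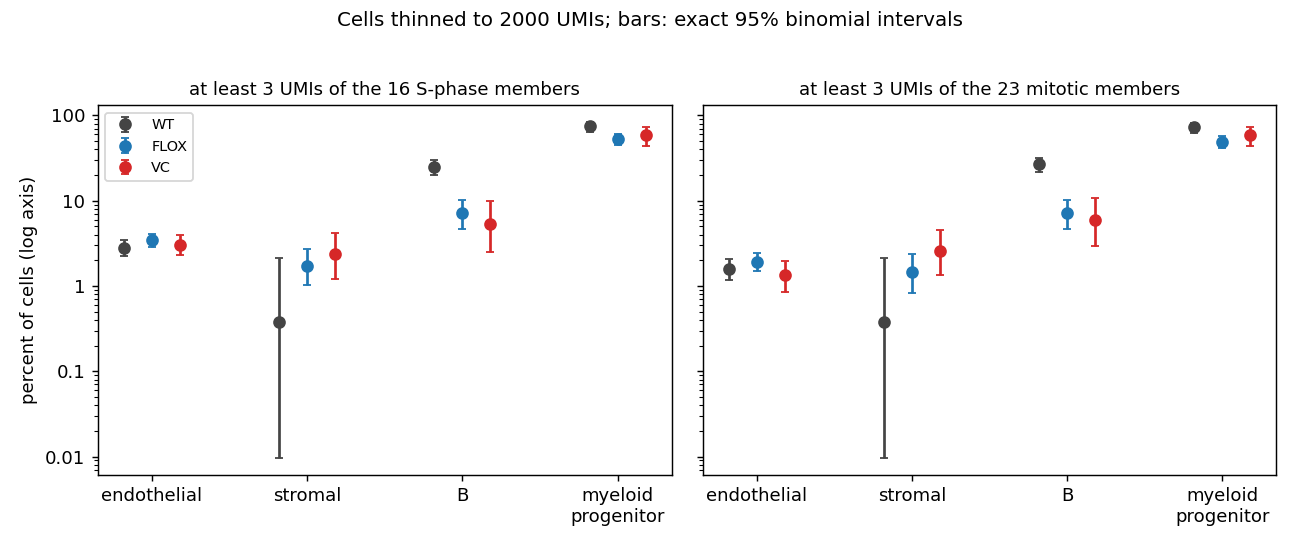
Percent of cells (log axis) with at least 3 UMIs of the S-phase members (left) or of the mitotic members (right) after thinning to 2000 UMIs, by class and library, with exact 95% binomial intervals. Endothelial cells lie between 1.33% and 3.41% in all libraries, stromal cells between 0.382% and 2.59%, and myeloid progenitors at 49.1% or above.

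The 2 lists were spread over endothelial cells in different ways. For each member the cells with at least 3 thinned UMIs of the other mitotic members were taken, at most 141 of 8453 endothelial cells, which held 3.25% of all UMIs. The share of a mitotic member's UMIs inside these cells had a median of 84.3% (range 44.6% for Bub1b to 93.8% for Hmmr), with Mki67 at 84.3%, Top2a at 83.2%, Cenpf at 92.3% and Ube2c at 90.3%. For S-phase members the median was 18.3%. The low end was Mcm3 at 9.18%, Mcm4 at 10.8%, Mcm2 at 11.8% and Pcna at 12.6%, so most of their endothelial UMIs lay in cells outside the dividing range. The high end was Uhrf1 at 47.7%, Rrm2 at 74.5%, the clamp-associated factor gene Pclaf at 75.7% and Esco2 at 90.6%, which in this measure lay among the mitotic members. Outside these cells Mcm3 still stood at 43.5 CPM, Pcna at 31.6, Rrm1 at 31.5 and Tyms at 20.3 CPM, and Esco2 at 0.511 CPM. The 3 members that did not pass between B and endothelial cells, Tyms, Mcm3 and Rrm1, are all among these 4 genes. Summed, the S-phase members were at 222 CPM outside and 1901 CPM inside, and the mitotic members at 49.4 and 7245 CPM. Since the dividing range is set by mitotic UMIs, the share of the mitotic list as a whole is partly fixed by that choice, and only the member counted was left out of it.

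In stromal cells the medians were 32.2% for S-phase and 83.6% for mitotic members, with Mcm4 lowest at 9.04%. In B cells they were 84.8% and 98.2% and in myeloid progenitors 73.0% and 95%. The difference between classes was not tested. Very few cells carried the mitotic total: 50% of the mitotic UMIs of the endothelial class came from 14, 21 and 6 cells and of the stromal class from 1, 5 and 5 cells, while 50% of the S-phase UMIs of endothelial cells were spread over 246, 195 and 140 cells.

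**Figure D4:**
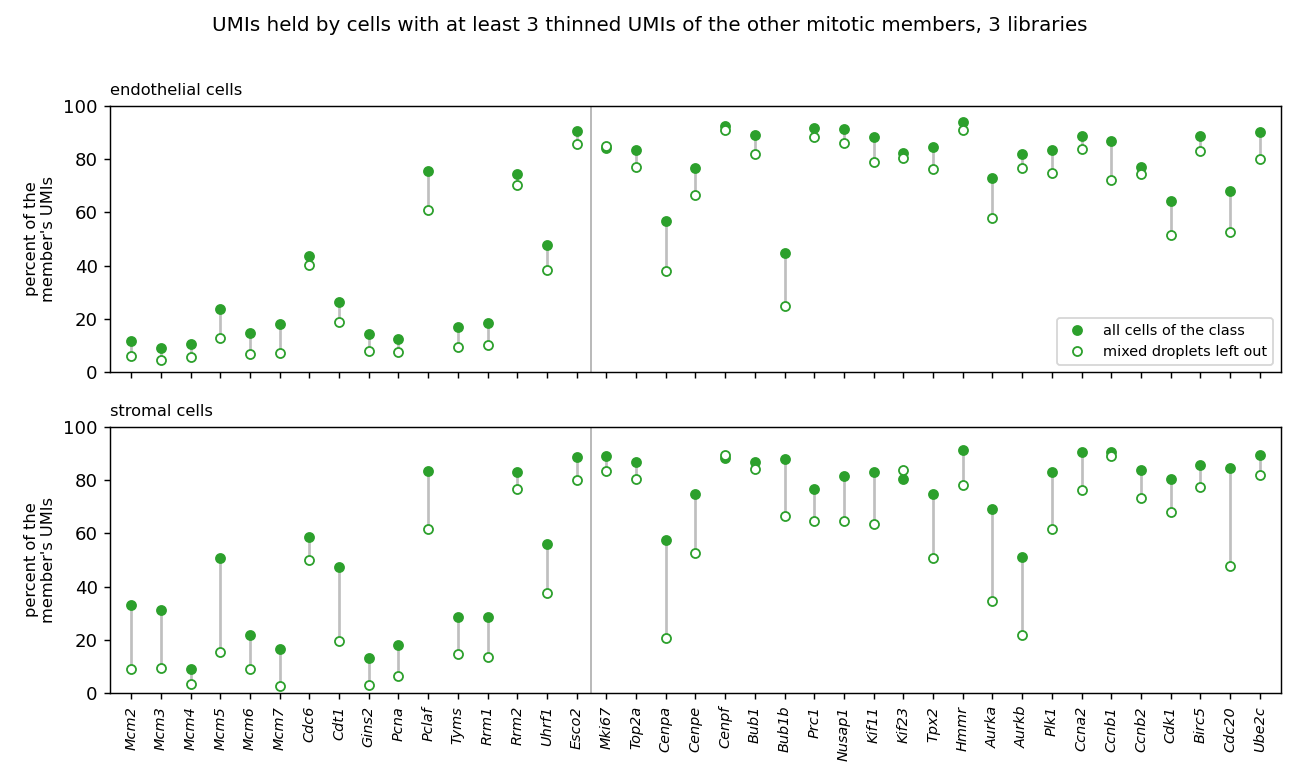
Percent of each member's UMIs found in cells with at least 3 thinned UMIs of the other mitotic members, for endothelial cells (top) and stromal cells (bottom) of the 3 libraries, with all cells (filled) and with mixed droplets left out (open). Among endothelial cells most S-phase members stay under 30% and most mitotic members are above 70%, with Esco2, Pclaf and Rrm2 on the mitotic side.

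Markers of blood cells moved with the dividing range in both niche classes. Ptprc, the pan-leukocyte antigen CD45, was detected in 46.0%, 59.7% and 29.2% of endothelial cells in the range against 2.88%, 4.79% and 4.50% of the other endothelial cells. A UMI of any of Ptprc, Cd79a, Elane, Mpo or Prtn3 was found in 30 of 50, 45 of 67 and 8 of 24 cells in the range, or 60.0%, 67.2% and 33.3%, against 20%, 14.4% and 10.7% of the others. The cells in the range were also deeper, at a median of 20412, 22075 and 17906.5 UMIs against 10989, 7616 and 10414. Cdh5 stood lower in them, at 743, 462 and 649 CPM against 1192, 994 and 1051 CPM. It sets the endothelial gate by raw UMIs, so deeper cells can pass at a lower CPM. The endothelial genes Kdr and Pecam1, which set no gate, were lower too. Kdr was at 879, 706 and 906 CPM against 1890, 1694 and 1511 CPM. Pecam1 was at 417, 339 and 482 CPM against 633, 626 and 556 CPM. Of the stromal cells in the range 1 of 1, 13 of 16 and 7 of 12 had a UMI of Ptprc, Cd79a, Elane, Mpo or Prtn3. Their Cxcl12, which sets the stromal gate by raw UMIs, was at 12360, 10645 and 8059 CPM against 26827, 24166 and 25072 CPM. No doublet caller was run. Droplets with a UMI of any of those 5 blood cell genes are called mixed droplets below. The name rests on 1 UMI at full depth and does not show that a droplet held more than 1 cell. Among the other endothelial cells 16.5%, 9.95% and 5.63% had a UMI of Elane, Mpo or Prtn3, and the part of free RNA was not tested.

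With the mixed droplets left out (658, 544 and 200 endothelial and 75, 277 and 112 stromal cells), 20, 22 and 16 endothelial cells stayed in the dividing range, or 0.803%, 0.740% and 0.999%. Of these 10, 14 and 12 also had at least 3 S-phase UMIs, and their Cdh5 was at 1037, 782 and 683 CPM. The summed mitotic level of endothelial cells was then 199, 118 and 125 CPM and the S-phase level 240, 223 and 238 CPM against 301, 317 and 170 CPM and 280, 291 and 251 CPM with all cells. Median shares inside the range were 9.97% for S-phase members and 76.8% for mitotic members against 18.3% and 84.3% with all cells. In stromal cells 0 of 187, 3 of 828 and 5 of 351 cells stayed in the range, the exact interval for WT reaching 1.95%.

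Within endothelial cells, those with at least 2 UMIs of the sinusoidal genes Stab1 and Stab2 and none of the arterial genes Gja4, Gja5, Sox17 and Bmx were in the dividing range at 1.11%, 1.32% and 1.38%. Cells with at least 2 UMIs of those arterial genes and no Stab2 were few, with 0 of 17, 4 of 102 and 1 of 51 in the range, the exact interval of 0 of 17 reaching 19.5%. Without thinning, 2 of 17, 5 of 102 and 1 of 51 of these cells had at least 10 mitotic UMIs. The arterial-gated cells also carried the 6 neutrophil markers at 26369 to 37187 CPM, and their part in the mitotic UMIs was not tested. Split by Cxcl9, an interferon-induced chemokine, the shares were 0.793% with and 1.85% without a UMI in WT, 1.46% and 2.01% in FLOX and 1.39% and 1.25% in VC. Within B cells, those with at least 2 UMIs of Vpreb1 and Igll1, the surrogate light chain of precursors, were in the dividing range at 54.5% (66 cells), 59.3% (27 cells) and 50% (6 cells), against 17.0%, 2.71% and 3.75% of B cells without. Before thinning these precursors numbered 67, 27 and 6 of 339, 373 and 168 B cells. Their part in the share of all B cells in the range was not tested.

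Between libraries the size rule was a CPM at least 1.5-fold higher, or lower, in 1 library than in both others. In endothelial cells VC was lower than WT and FLOX for 18 of the 39 members, against 3.67% of 13581 genes. These were 16 mitotic members (Cenpf, Nusap1, Tpx2, Ube2c, Cenpe, Cdc20, Cenpa, Prc1, Plk1, Mki67, Ccnb2, Hmmr, Aurkb, Birc5, Ccnb1 and Kif11) and the S-phase members Rrm2 and Cdt1. No member was higher in VC, or past the size in WT or FLOX in either direction, where the background was 1.9% for higher in VC, 3.48% and 4.82% for higher and lower in WT, and 2.76% and 0.987% for higher and lower in FLOX. The log2 ratio of the summed mitotic CPM was −0.82 for VC to WT and −0.90 for VC to FLOX, and all 23 mitotic members were below both, with medians of −0.78 and −0.83 against −0.15 and −0.06 for all genes. For the S-phase sum the ratios were −0.16 and −0.21, with 14 of 16 members below each. Rrm2 was the S-phase member furthest down, at −1.29 and −1.52. By role, the kinetochore and checkpoint genes summed to 67.3, 65.0 and 36.5 CPM, the spindle and cytokinesis genes to 70.9, 71.5 and 38.8 CPM, and the kinase and cyclin group to 46.0, 50.1 and 29.2 CPM. The S-phase role groups were also lowest in VC, the clamp genes for example at 53.7, 56.9 and 51.5 CPM. The 2 ratios share the VC library. The 6 myeloid progenitor markers, none at 0, summed to 223, 209 and 9.92 CPM in the endothelial cells, lowest in VC as the mitotic members were, and their part in the result was not tested.

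Without the mixed droplets WT, not VC, was the library apart in endothelial cells. The log2 ratio of the summed mitotic CPM was then −0.67 for VC to WT, 0.076 for VC to FLOX and −0.75 for FLOX to WT, the last against 0.07 with all cells. No member was at least 1.5-fold lower in VC than in both others (background 2.3% of genes). WT was higher than both others for 13 members, Rrm2 and the mitotic members Cenpf, Tpx2, Ube2c, Ccna2, Cenpe, Cdc20, Prc1, Plk1, Ccnb2, Hmmr, Ccnb1 and Kif11, against 3.31% of genes. Cenpf, for one, was at 21.2, 10.7 and 9.59 CPM. FLOX was lower than both others for Esco2 and Aurkb, against 0.939% of genes. The S-phase ratios of VC were −0.01 to WT and 0.10 to FLOX. The shares of endothelial cells in the dividing range had intervals that overlapped across libraries. Without the mixed droplets 50% of the mitotic UMIs came from 7, 8 and 5 endothelial cells, against 14, 21 and 6 with all cells. The sums thus rest on few cells, and counting intervals of UMIs understate that error.

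In stromal cells the direction was the opposite. VC was higher than both others for 20 of the 37 members tested (those with at least 50 UMIs), 17 mitotic and 3 S-phase (Esco2, Pclaf and Rrm2), against 3.15% of 11746 genes. WT was lower than both others for 21 of 37, 13 mitotic and 8 S-phase, against 7.64% of genes, and Cenpa was the 1 member lower in FLOX, against 0.962%. None was past the other sizes, where the background was 5.99% for higher in WT, 1.15% for higher in FLOX and 2.19% for lower in VC. The summed mitotic ratio was 1.75 for VC to WT and 1.00 for VC to FLOX, and the S-phase ratio 0.88 and 0.34. Ptprc in stromal cells was at 5.03, 14.2 and 20.5 CPM, and the 6 neutrophil markers, none at 0, at 314, 2960 and 8328 CPM, in the same order of libraries as the members, and their part in the result was not tested. With the mixed droplets left out the mitotic sums were 33.3, 51.7 and 198 CPM, ratios of 2.57 and 1.94. Then 13 of 24 tested members were past the size, against 1.71% of genes. None of the 6 neutrophil markers defines a mixed droplet, so droplets with UMIs of those markers could stay in. Of the VC stromal cells only 5 were then in the dividing range, and 2 held 50% of the mitotic UMIs.

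**Figure D5:**
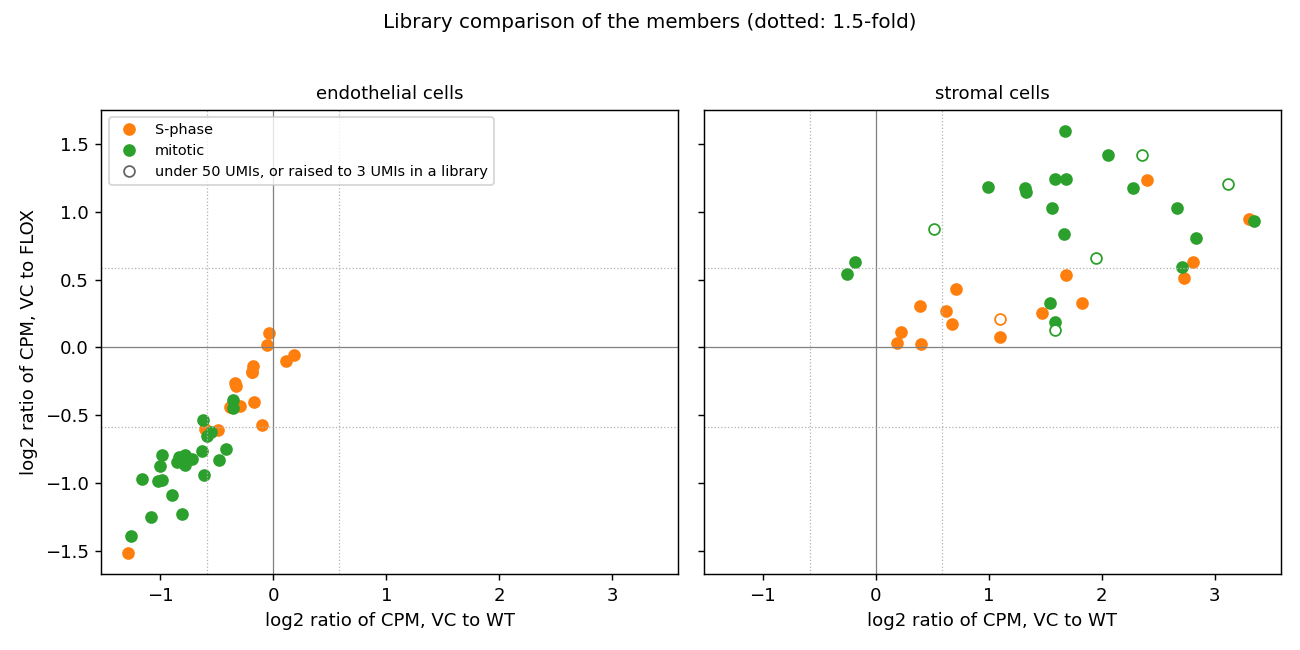
Log2 ratio of each member's CPM in VC to WT (x axis) and to FLOX (y axis) in endothelial cells (left) and stromal cells (right), with dotted lines at 1.5-fold. Both axes share the VC library. Mitotic members lie in the lower left in endothelial cells and mostly in the upper right in stromal cells, and open circles mark 6 stromal members with few UMIs.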

How the data were processed

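The deposited matrices hold UMI counts per gene and cell, 1 matrix per library, with no normalization. Per the submitters' processing notes the tools were Cell Ranger 2.1.1 and Seurat 3.1 on mm10, and the software version in the matrix headers is 3.1.0. Per the labels' protocols, VE-cadherin antibody was given intravenously, tibias were flushed and digested, and the cells were labelled with antibodies to CD45, Ter119 and LepR. The 39 members and all gene lists were chosen with earlier results of these data known.

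Classes were set on raw UMIs. Endothelial cells had at least 1 UMI of Cdh5 and under 50 of Cxcl12. Stromal cells had at least 50 of Cxcl12, at least 1 of Lepr or Adipoq and at most 2 of Cdh5. Plasma cells had at least 20 of Jchain. The members took no part. Levels are CPM of class sums with exact Poisson 95% intervals, and shares have exact Clopper-Pearson intervals. These intervals cover counting error only. Cells were thinned to 2000 UMIs for shares (seed 1). No doublet caller was run.

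Class contrasts used edgeR 4.0.16 (glmQLFit and glmQLFTest, R 4.3.3, limma 3.58.1), TMM, Benjamini-Hochberg adjustment and genes with at least 50 UMIs over the 12 sums, with the library as a block because each library holds all 4 classes. The method was tested on simulated data. Alternatives were other scalings, filters, gates, depths, DESeq2 1.42.0, left-out libraries and mixed droplets left out (endothelial or stromal cells with a UMI of Ptprc, Cd79a, Elane, Mpo or Prtn3, and the like for the other classes). Leaving out B cells with 20 or more Jchain UMIs, and mixed droplets in the shares of each member's UMIs, was chosen after seeing the data. Named members were, by a rule, the most abundant of each role group in endothelial cells, Mki67 and Top2a, and the extremes of each contrast; others named (Mcm2, Mcm4, Pclaf, Bub1b, Cdt1 and members in lists) were chosen after their values were seen. Promoter sequences came from RefSeq (GRCm38.p6, the assembly of mm10). Other software was Python 3.11.15, numpy 2.4.6, pandas 2.3.3, scipy 1.17.1 and matplotlib 3.10.9.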

Additional observations from a re-analysis of the deposited data

Results flagged for a closer look

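The summed mitotic members went in opposite directions in the 2 niche classes of the same libraries. In endothelial cells the log2 ratio of their CPM was −0.82 for VC to WT and −0.90 for VC to FLOX. In stromal cells it was 1.75 for VC to WT and 1.00 for VC to FLOX. There is 1 library per genotype, so the difference between the classes was not tested. With the mixed droplets left out the endothelial ratio of VC to FLOX was 0.076 and that of FLOX to WT was −0.75.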

How the results depend on the processing

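Counts of members higher in myeloid progenitors than in B cells moved most: from 6 to 10 with genes of at least 1 UMI, 12 with stricter gates, 13 with mixed droplets left out, 3 with B cells of 20 or more Jchain UMIs left out, and 0 to 37 on leaving out 1 library. Without the replicate block (the library) the count was 3 there, 37 for B cells and 39 for myeloid progenitors against endothelial cells, with 3 members lower in stromal cells. Stromal against endothelial cells gave 1 member higher with stricter gates, 1 with mixed droplets left out and 2 higher and 5 lower without the Jchain-rich B cells. Leaving out 1 library gave 0 to 2 higher and 0 to 6 lower there, and 0 to 1 lower in B cells against endothelial cells. The share of endothelial cells in the dividing range was 1.43% in FLOX at 1000 UMIs, 2.30% in WT and 2.63% in FLOX at 4000 UMIs and 1.44% in FLOX with stricter gates. With mixed droplets left out it was 0.803% in WT and 0.740% in FLOX, and 0% and 0.362% in the stromal cells of WT and FLOX. The endothelial mitotic log2 ratios (VC to WT, VC to FLOX) were −0.68 and −0.83 with median-of-ratios scaling, −0.95 and −0.75 with stricter gates, and −0.67 and 0.076 with mixed droplets left out. The ratio to FLOX was −0.54 with each cell weighted alike, and that to WT −0.77 with at least 1000 genes and at most 5% mitochondrial UMIs. In stromal cells the ratio to FLOX was 1.24 with stricter gates, and with mixed droplets left out the ratios were 2.57 and 1.94. Endothelial members 1.5-fold lower in VC numbered 9 with cells weighted alike, 3 at 2-fold and 0 with mixed droplets left out. Stromal members higher numbered 8 at 200 UMIs or more, 12 at 2-fold and 13 with mixed droplets left out. The cause was not tested. Of single members, 591 of the alternatives kept direction and side of the threshold, 36 passed it newly and 5 no longer passed. Another 40 changed sign where the main fit had not passed. Among these, Tyms without WT passed as lower in B cells than in endothelial cells. In the stromal cells of WT the mitotic members had 299 UMIs in all, which limits the precision of ratios to that library.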
